A study of Mus musculus with 9 samples.

Results

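The comparison of day 3 with day 0 takes in the early differentiation of C2C12 cells, which the titles spell CSC12. These mouse myoblasts stop dividing when serum is reduced and merge with one another into multinucleated myotubes. Its members are the genes with a mean of at least 5 CPM (read counts scaled to a common library total) over the 6 libraries of these days, which were 10835 of the 47728 genes listed. The 6 libraries are 1 control, 1 knockdown of Fkbp4 and 1 knockdown of Fkbp5 at each day, out of 9 libraries with day 5. Day 0 cells of all 3 genotypes had been seeded 2 days earlier in medium with 10% fetal bovine serum. Differentiation then began in medium with 1% insulin-transferrin-selenium, and the medium was later renewed every 2 days with one that the labels abbreviate as HS. The labels do not give the method of the knockdown, nor whether the libraries of a genotype came from separate cultures.

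Each day 3 library was paired with the day 0 library of its genotype, so the 3 genotypes stood in for replicates and 2 residual degrees of freedom remained. A p-value therefore weighs the change between the days against how far that change varied between the genotypes. This spread mixes differences between genotypes in the change with differences between samples. Differences between genotypes in level are taken up by the genotype term of the fit. Values for single libraries are given in the order control, Fkbp4 knockdown, Fkbp5 knockdown. CPM are not divided by gene length, so levels are compared between libraries and not between genes. A log2 fold change is the day 3 level over the day 0 level common to the genotypes, with its standard error (SE), from edgeR's quasi-likelihood test, and a gene was called at a Benjamini-Hochberg adjusted p under 0.05 over all genes tested.

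Skeletal muscle differentiation is driven by the MyoD family of basic helix-loop-helix factors, which bind E-boxes together with MEF2 factors and switch on myogenin and then the genes of the contractile apparatus. A myoblast must first leave the cell cycle: the inhibitor p21 and the retinoblastoma protein hold the cyclin D kinases and the E2F factors in check, and the genes of DNA synthesis and mitosis are shut off. The mononucleated cells then align and fuse under the control of myomaker and myomixer, and assemble actin and myosin into sarcomeres linked to a calcium-releasing membrane system.

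Most members, by a small margin, were called in this fit, about equally in both directions. The libraries were scaled on the premise that most genes change little between them (TMM scaling). The near-equal counts and the median near 0 therefore follow in part from the scaling. Fewer genes were called by DESeq2 or with the pair of libraries of a genotype left out. Of 12140 genes tested 6196 were called (51.0%), and of 10825 members tested 5720 were called (52.8%). The other 10 members did not pass edgeR's low-count filter, which asks for reads in several libraries. The higher members numbered 2811 (26.0%) and the lower members 2909 (26.9%). At least 2-fold changes were called in 946 higher members (8.74%) and 928 lower members (8.57%). Changes of at least 16-fold were mostly increases, with 109 members higher and 22 lower, against 327 and 200 at 4-fold. All 1874 called members with at least a 2-fold change moved in the same direction in every genotype, while 22 of the 5720 called members went the other way in at least 1 genotype. The median log2 fold change of the members was −0.01, the median SE was 0.14, and the smallest called change was 0.27 in size. With so many calls, a gene list that is 52.8% called is at the background.

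The library totals ran from 3932372 to 5568486 counts, so 3 counts, the limit that a count of 0 allows, were worth 0.539 to 0.763 CPM. The share called differed with the level: 45.7% of the members in the lowest of 3 equal groups by mean CPM were called, against 59.9% in the highest. Mitochondrial transcripts held 1.78% to 2.57% of the reads at day 0 and 3.11% to 4.75% at day 3. There were 233 members under 5 CPM in all day 0 libraries and 133 under it in all day 3 libraries. These passed the minimum through the other day, so counts over a list are descriptions of the genes that reached it. In bulk RNA, fewer cells in a state and less of an mRNA in each cell cannot be told apart. At the threshold, Gm11401 (5.005 CPM) and Gm6223 (5.007 CPM) lay just inside and Duox1 (4.993 CPM) and Nfkbie (4.996 CPM) just outside.

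**Figure D1:**
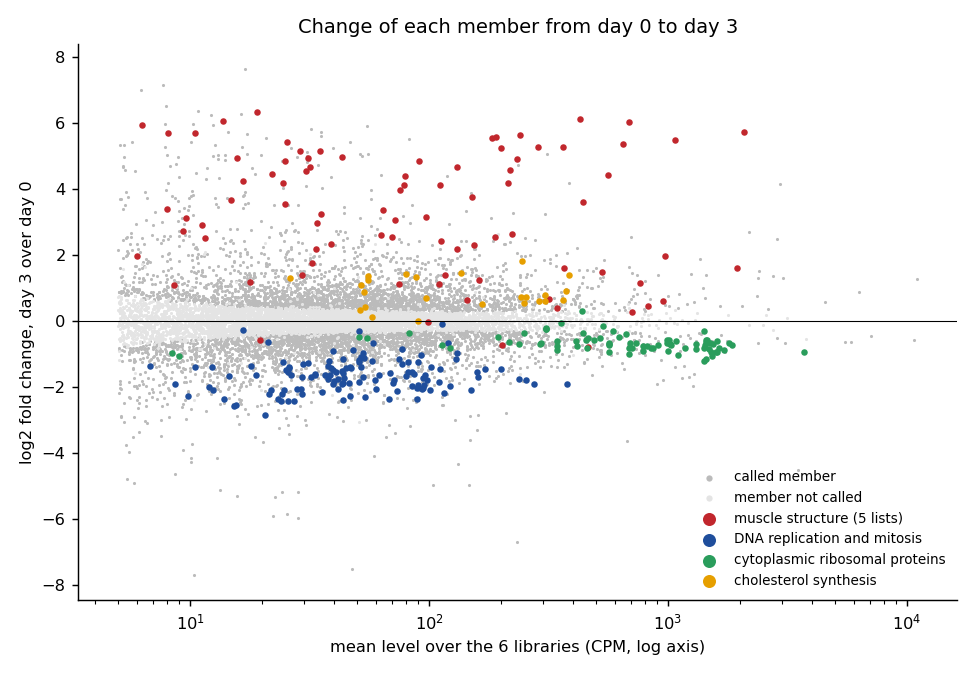
Each point is one member, with its mean level over the 6 libraries (CPM, log axis) against its log2 fold change from day 0 to day 3, where coloured points are the members of muscle structure, DNA replication and mitosis, ribosomal protein and cholesterol synthesis lists. Most muscle structure genes lie well above 0 at every level, the replication and mitosis genes lie below 0, and all but 1 of the ribosomal protein genes sit in a narrow band below 0.

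Most myogenic regulators rose: 19 higher and 2 lower of 24 tested, with a median log2 fold change of 0.72. Myogenin, the E-box factor that commits myoblasts to differentiation (Myog, chr1:134289989-134292548 on GRCm38), stood at 14.8, 31.5 and 11.3 CPM at day 0 and 358, 323 and 152 CPM at day 3. The day 0 level was highest in the Fkbp4 knockdown and the day 3 level lowest in the Fkbp5 knockdown, and no day 3 library came near a day 0 library (log2 fold change 3.88, SE 0.23, adjusted p = 8.02e-06). MyoD itself was present before differentiation began. Myod1 stood at 69.6, 75.2 and 67.9 CPM at day 0 and 121, 121 and 112 CPM at day 3, and the days did not overlap although the change was small (log2 fold change 0.74, SE 0.11, adjusted p = 0.000102). The MEF2 factors, which cooperate with MyoD, rose in the order Mef2c (2.95, SE 0.18), Mef2a (2.46, SE 0.12) and Mef2d (1.54, SE 0.11). Mef2c had 5.96, 9.43 and 7.90 CPM at day 0 and 66.3, 60.4 and 52.5 CPM at day 3, and Mef2a, with the most reads of them, 76.2, 102 and 76.1 CPM at day 0 and 433, 578 and 391 CPM at day 3. Mef2c went on to 204, 169 and 74.6 CPM at day 5 while Mef2a stood at 345, 452 and 322 CPM, levels given side by side because both days are set against the same earlier libraries.

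The largest increases among the regulators were in Rbm24 and Smyd1. Rbm24, an RNA-binding protein of muscle splicing, stood at 1.33, 3.81 and 2.11 CPM at day 0 and 86.2, 68.9 and 41.8 CPM at day 3 (log2 fold change 4.73, SE 0.28, adjusted p = 6.57e-07). All 3 day 0 libraries were below every day 3 library. Smyd1, a muscle methyltransferase that helps fold and assemble myosin, stood at 5.08, 9.43 and 2.37 CPM at day 0 and 129, 136 and 91.7 CPM at day 3 (log2 fold change 4.42, SE 0.22, adjusted p = 1.22e-07). Its Fkbp5 knockdown library was the lowest at both days. Tcf12, an E-protein partner of MyoD, rose less (log2 fold change 0.56, SE 0.11, adjusted p = 0.000809). The regulators of the list that fell were Tcf3 (log2 fold change −0.31) and Eya1 (−0.91). MRF4 (Myf6), the MyoD family member of mature fibres, did not reach the 5 CPM minimum (mean 0.826 CPM).

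**Figure D2:**
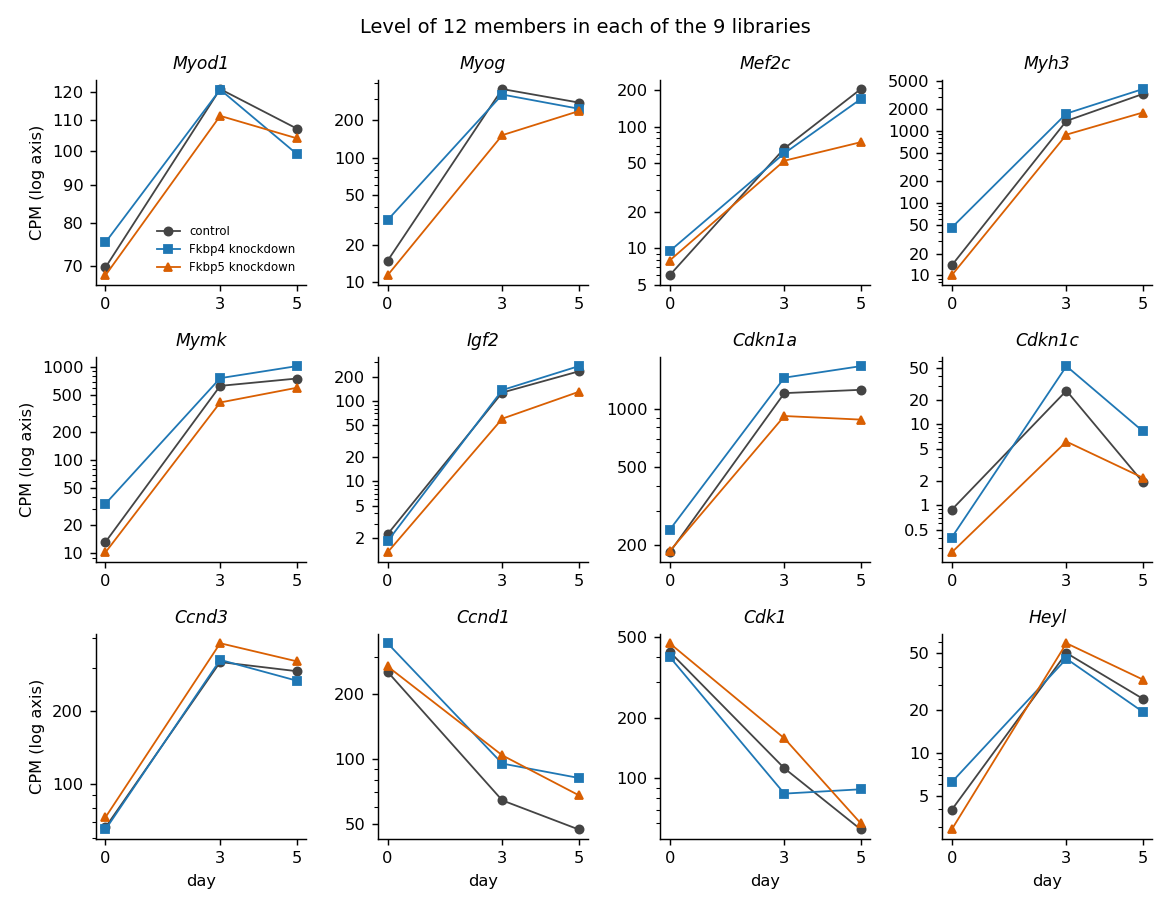
Level in CPM (log axis) of 12 members at days 0, 3 and 5, with 1 point per library and 1 line per genotype. Myog, Myh3, Mymk and Igf2 climb to day 3 in each genotype, Ccnd1 and Cdk1 drop, and Cdkn1c and Heyl are higher at day 3 than at days 0 and 5.

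Genes of the progenitor state split, with 8 higher and 12 lower of 22 tested (90.9% called, median −0.73). The chromatin proteins of proliferating cells went down furthest. Hmga2, an architectural DNA-binding protein of embryonic and growing cells, stood at 262, 246 and 249 CPM at day 0 and 13, 9.89 and 14.5 CPM at day 3 (log2 fold change −4.34, SE 0.14, adjusted p = 1.59e-09). The 3 genotypes lay close together at both days, and the lowest day 0 library was far above the highest day 3 library. Its relative Hmga1 fell (log2 fold change −3.14, SE 0.61, adjusted p = 0.0409). For each gene, the share of its 31-base words (all stretches of 31 bases in its transcripts) that also occur in transcripts of other genes shows how far its reads could be split, and for Hmga1 this was 62.1%. Hmga1 lost its call without the control pair (log2 fold change −2.97, adjusted p = 0.0558), with no genotype term (log2 fold change −2.86, adjusted p = 0.0654) and with no filter on low counts (log2 fold change −3.13, adjusted p = 0.127). Syndecan-4 (Sdc4), a heparan sulfate co-receptor of satellite cells, fell as well (log2 fold change −1.62, SE 0.12, adjusted p = 3.95e-07). M-cadherin (Cdh15), the adhesion protein of myogenic cells, rose (log2 fold change 0.95, SE 0.12, adjusted p = 3.33e-05), as did the neural cell adhesion molecule Ncam1, at 55.7, 58.2 and 52.1 CPM at day 0 and 264, 254 and 232 CPM at day 3 (log2 fold change 2.18, SE 0.11, adjusted p = 2.06e-08). The satellite cell factor Pax7 did not reach the minimum (mean 0.866 CPM). The intermediate filament nestin (Nes), at 1846, 1365 and 1016 CPM at day 0 and 1893, 2053 and 1698 CPM at day 3, passed with overlapping days (log2 fold change 0.46, SE 0.15, adjusted p = 0.0232): the control was nearly level, and both knockdowns were higher at day 3. Nes was not called without the Fkbp4 knockdown pair (log2 fold change 0.39, adjusted p = 0.136), without the Fkbp5 knockdown pair (log2 fold change 0.34, adjusted p = 0.0797) or with no genotype term (log2 fold change 0.42, adjusted p = 0.121).

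Sarcomere genes gave the largest median change of the lists. All 14 thick filament genes that reached the minimum, of 23 in the list, were higher at day 3 (median log2 fold change 4.88). Those under 5 CPM in every day 0 library reached the minimum through day 3, so this count only describes the genes that did. The whole list's share of the reads went from 0.0149%, 0.0369% and 0.0145% to 0.948%, 0.927% and 0.599%. The embryonic myosin heavy chain Myh3 (chr11:67078300-67102291) stood at 13.7, 45.7 and 10.0 CPM at day 0 and 1381, 1748 and 892 CPM at day 3. Every day 3 library was far above every day 0 library (log2 fold change 6.04, SE 0.33, adjusted p = 2.3e-05), and among day 0 libraries the Fkbp4 knockdown was the highest. The fast light chain Mylpf, with the most reads of the group, stood at 55.2, 146 and 51.8 CPM at day 0 and 4879, 4423 and 2922 CPM at day 3 (log2 fold change 5.72, SE 0.35, adjusted p = 4.67e-05). Myl4, the embryonic and atrial light chain, went from 5.96, 8.83 and 7.90 to 484, 366 and 226 CPM (log2 fold change 5.53, SE 0.25, adjusted p = 1.05e-06). In Myh3, Mylpf and Myl4 alike the Fkbp5 knockdown was the lowest library of day 3. Myl1 (4.42, SE 0.35) and Mybph (5.64, SE 0.44), a myosin-binding protein with 46.4% of its words shared, rose too. Without the Fkbp5 knockdown pair Myl1 was not called (log2 fold change 4.51, adjusted p = 0.0658). Adult fast Myh4, slow Myh7 and perinatal Myh8 lay just under the minimum, at means of 4.49, 4.77 and 4.64 CPM.

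Thin filament genes rose with them: 18 higher and 1 lower of 20 tested, from 22 in the list (median 4.56). Skeletal actin Acta1 (chr8:123891769-123894751) stood at 35.1, 88.3 and 29 CPM at day 0 and 2503, 2262 and 1455 CPM at day 3 (log2 fold change 5.47, SE 0.33, adjusted p = 4.58e-05). Cardiac actin Actc1, the main sarcomeric actin of embryonic muscle, stood at 7.07, 22.5 and 7.11 CPM at day 0 and 933, 1248 and 332 CPM at day 3 (log2 fold change 6.12, SE 0.28, adjusted p = 1.83e-06). Both actins were highest at day 0 in the Fkbp4 knockdown and lowest at day 3 in the Fkbp5 knockdown, without overlap between the days. Actc1 stood no higher at day 5 (608, 1174 and 323 CPM), whereas Acta1 reached 4945, 5006 and 3462 CPM. Slow troponin C (Tnnc1) followed the actins (log2 fold change 5.36, SE 0.26, adjusted p = 1.87e-06). The leiomodin Lmod2, which builds thin filaments to length, went from 2, 4 and 0 reads at day 0 to 51.8, 36.4 and 23.8 CPM at day 3 (log2 fold change 6.33, SE 0.32, adjusted p = 2.6e-08). The tropomyosins parted. Tpm2 and Tpm1 started high and rose less than the actins, Tpm2 by 1.97 (SE 0.15) and Tpm1 by 0.60 (SE 0.12). Tpm3 was the gene of this list that fell (log2 fold change −0.78), and Tpm4 of the cytoskeleton list fell as well (−1.175).

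At the Z-disc, the anchor of the thin filaments, 19 of 26 listed genes reached the minimum. Of these 17 rose and 1 fell (median 2.54). Calsarcin-1 (Myoz2) went from 1, 2 and 2 reads at day 0 to 42.1, 24.7 and 14.1 CPM (log2 fold change 6.07, SE 0.35, adjusted p = 4.9e-08). The control was highest and the Fkbp5 knockdown lowest at day 3, and the log2 ratios within a genotype were 7.58, 5.96 and 4.75. The crosslinker Actn2 (5.68, SE 0.47), the stretch-associated Ankrd2 (5.70, SE 0.48) and muscle LIM protein Csrp3 (4.95, SE 0.28) were under 2 CPM in every day 0 library. Desmin (Des), the muscle intermediate filament, was already abundant at 994, 852 and 1034 CPM at day 0 and 2644, 3145 and 2897 CPM at day 3 and was 3.03-fold higher at day 3 (log2 fold change 1.60, SE 0.14, adjusted p = 1.65e-06). Ankrd1, at 663, 819 and 436 CPM at day 0 and 718, 1040 and 544 CPM at day 3, was not called (log2 fold change 0.27, SE 0.12, adjusted p = 0.0823).

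In the calcium release system 20 of the 21 genes that reached the minimum, of 26 in the list, rose and none fell (median 2.98). Cardiac calsequestrin (Casq2), the calcium store protein of the sarcoplasmic reticulum, stood at 4.20, 13.8 and 5.53 CPM at day 0 and 442, 432 and 239 CPM at day 3 (log2 fold change 5.59, SE 0.33, adjusted p = 5.84e-05). Cacna1s, the voltage sensor of excitation-contraction coupling, stood at 1.11, 3.61 and 0.790 CPM at day 0 and 70.5, 75.4 and 56.5 CPM at day 3 (log2 fold change 5.16, SE 0.27, adjusted p = 1.76e-07). In each the days were widely apart. The reticulum proteins Hrc (4.93, SE 0.21) and Srl (4.58, SE 0.29) followed, while the pump Atp2a2, present before differentiation, moved by 0.39 (SE 0.11) and reached 921, 915 and 523 CPM at day 5. Atp2a2 was not called without the control pair (log2 fold change 0.42, adjusted p = 0.097) or without the Fkbp4 knockdown pair (log2 fold change 0.39, adjusted p = 0.0663). Camk2b, a calcium-dependent kinase, had 2 reads at day 0 and 166 at day 3 summed over the genotypes, a ratio of 77.3 for day 3 over day 0 (95% counting interval 21.1 to 644), and the day 3 reads were mostly from the Fkbp5 knockdown (29, 17 and 120). Endplate genes rose in 10 of the 11 cases that reached the minimum, of 17 in the list, with none lower. In these muscle lists too, genes under 5 CPM in every day 0 library reached the minimum through day 3. The counts only describe the genes that reached it. The fetal receptor subunit Chrng stood at 8.84, 15.3 and 5.79 CPM at day 0 and 257, 342 and 148 CPM at day 3 (log2 fold change 4.66, SE 0.14, adjusted p = 1.26e-09), and the subunit Chrna1, already at 453, 509 and 447 CPM at day 0, moved by 1.15 (SE 0.12). Dok7 (3.23, SE 0.19) and Lrp4 (3.16, SE 0.13), which carry the agrin signal to the kinase MuSK, were higher in every genotype.

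The promoters of this group are shown because E-boxes and MEF2 sites are the letters that the myogenic factors read. The sequences are RefSeq promoters of GRCm38.p6, trimmed to the stretch with the matches, in capitals. Of the muscle structure genes, 3 with an E-box (CAGCTG) and a MEF2 or CArG match in the 250 bases before the start were chosen after their changes were seen. Acta1 (chr8:123894833-123895002, minus strand) holds CAGCTG at position −221 from the start and a CArG box, the site of serum response factor, at −73. Klhl41 (chr2:69669987-69670072, plus strand), a regulator of thin filament proteins, holds CAGCTG at −127 and a MEF2 match at −63. Myoz2 (chr3:123034988-123035026, minus strand) holds a MEF2 match at −33 and CAGCTG at −12.
Acta1: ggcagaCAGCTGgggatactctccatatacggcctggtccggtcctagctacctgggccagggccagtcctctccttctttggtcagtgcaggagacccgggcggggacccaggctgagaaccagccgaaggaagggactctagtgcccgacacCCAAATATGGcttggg
Klhl41: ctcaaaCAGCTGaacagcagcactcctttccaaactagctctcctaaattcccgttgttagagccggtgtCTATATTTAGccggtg
Myoz2: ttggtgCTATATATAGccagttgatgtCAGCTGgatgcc

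Across the 300-base windows, searched on both strands, CAGCTG occurred in 41.9% of the 62 promoters of the muscle structure lists, in 28.7% of the members called at least 2-fold higher, in 15.3% of those called at least 2-fold lower, in 14.6% of the 8198 members with a promoter and in 16.1% of all 27025 promoters. MEF2 and CArG motifs have degenerate letters and are given by name, and both are rich in A and T. MEF2 matches were rare, in 8.07% of the muscle structure promoters and 0.427% of the members, and in 0.570% of all promoters. CArG boxes were in 6.45% and 1.42%, and in 1.59% of all promoters. Members with CAGCTG were called at least 2-fold higher in 16.5% of cases and members without it in 6.98%. Within the muscle structure lists the median log2 fold change was 4.0 for the 26 promoters with CAGCTG and 3.86 for the 36 without it. The promoter window of Myog held none of these motifs, which says only that the letters are not in that window. Other forms of the E-box and of the MEF2 site were not searched, in Myog or elsewhere.

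Fusion genes were mixed as a list (13 higher and 7 lower of 28 tested, 71.4% called, median 0.33). The fusion proteins of the membrane were among the largest increases. Myomaker (Mymk, chr2:27061636-27072179) stood at 13.3, 34.1 and 10.3 CPM at day 0 and 629, 761 and 417 CPM at day 3 (log2 fold change 5.07, SE 0.22, adjusted p = 1.76e-07). Myomixer (Mymx), its small partner, went from 0.884, 3.01 and 2.11 CPM to 106, 85.1 and 38.4 CPM (log2 fold change 5.23, SE 0.34, adjusted p = 1.26e-05). The Fkbp5 knockdown was lowest at day 3 in both. Caveolin-3 (Cav3), the caveolar coat protein of muscle, had 1 read at day 0 and 181 at day 3 summed over the genotypes, a ratio of 169 for day 3 over day 0 (95% counting interval 29.9 to 6696). Tmem182, a muscle membrane protein that binds integrins, rose (log2 fold change 4.02, SE 0.26, adjusted p = 1.39e-06). The integrin chain Itga7, which binds laminin in muscle, was abundant at both days (538, 592 and 592 CPM at day 0 and 1933, 2313 and 2118 CPM at day 3) and rose (log2 fold change 1.89, SE 0.13, adjusted p = 1.75e-07). Its partner Itgb1 was not called, at 789, 722 and 849.5 CPM at day 0 and 918, 924 and 863 CPM at day 3 (log2 fold change 0.20, SE 0.12, adjusted p = 0.189), but it was called without the Fkbp5 knockdown pair (log2 fold change 0.31, adjusted p = 0.0203). Bin1, which shapes the transverse tubules, rose (log2 fold change 1.64, SE 0.12, adjusted p = 3.83e-07). The complex that ties the cell to laminin rose in 13 of 19 genes and fell in none (median 0.57), with 68.4% called against 52.8% of the members. Sgca, a sarcoglycan of this complex, rose by 3.45 (SE 0.15).

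The list of muscle energy metabolism had 14 higher and 4 lower of 22 tested (81.8% called, median 0.89). Muscle creatine kinase (Ckm), which buffers ATP with phosphocreatine, stood at 2.43, 2.81 and 1.05 CPM at day 0 and 98.5, 118 and 55.9 CPM at day 3 (log2 fold change 5.42, SE 0.18, adjusted p = 1.59e-09). It rose in every genotype and the Fkbp5 knockdown was lowest at both days. The muscle isoform Pgam2 of phosphoglycerate mutase (5.24, SE 0.37) and the heart and muscle cytochrome oxidase subunit Cox6a2 (5.27, SE 0.50) rose as well. Cox8b, another such subunit, had 3 reads at day 0 and 217 at day 3 summed over the genotypes, a ratio of 67.4 for day 3 over day 0 (95% counting interval 22.8 to 329). Myoglobin (Mb), the oxygen store, shared 27.7% of its words with other genes and stood at 1.11, 2.61 and 0.790 CPM at day 0 and 70.5, 26.1 and 66.1 CPM at day 3, lowest at day 3 in the Fkbp4 knockdown (log2 fold change 4.98, SE 0.52, adjusted p = 0.00124). Lactate dehydrogenase A (Ldha) fell, at 1798, 1756 and 1890 CPM at day 0 and 1084, 1317 and 1169 CPM at day 3 (log2 fold change −0.61, SE 0.13, adjusted p = 0.00189), and so did enolase Eno1 (−0.42, SE 0.13, 28.5% of words shared). Without the control pair neither Ldha (log2 fold change −0.54, adjusted p = 0.0565) nor Eno1 (log2 fold change −0.37, adjusted p = 0.212) was called, and Eno1 was not called with no genotype term (log2 fold change −0.41, adjusted p = 0.07). The kinase Pdk4, which restrains pyruvate oxidation, and the glucose transporter Slc2a1 were the other genes that fell. Pyruvate kinase Pkm was not called (log2 fold change −0.11, SE 0.13, adjusted p = 0.521), nor was the enolase Eno3, at a mean of 588 CPM (log2 fold change −0.08). The list held 0.811%, 0.927% and 0.839% of the reads at day 0 and 0.725%, 0.935% and 0.843% at day 3.

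Respiratory chain transcripts from the nucleus were mostly not called, with 15 higher and 4 lower of 81 tested, a called share of 23.5% against 52.8% of the members. The 19 calls became 11 with DESeq2, 12 with no genotype term and 8 without the control pair. The ATP synthase genes Atp5b (−0.13, SE 0.13) and Atp5a1 (0.07, SE 0.12) were among those not called. Ndufv3, a complex I subunit, rose (log2 fold change 0.89, SE 0.11, adjusted p = 2.6e-05) and Ndufa4 fell (log2 fold change −0.71, SE 0.13, adjusted p = 0.000525). All 10 mitochondrially encoded genes that reached the minimum were higher (median 0.93), and the list held 1.71%, 1.68% and 2.42% of the reads at day 0 and 4.61%, 3.01% and 4.30% at day 3. The complex I subunit mt-Nd5 stood at 1636, 1488 and 2145 CPM at day 0 and 5039, 3384 and 4415 CPM at day 3 (log2 fold change 1.29, SE 0.15, adjusted p = 1.62e-05). The days did not overlap, with the Fkbp4 knockdown lowest at each. mt-Co1 was higher too (1.28, SE 0.20), with 63.9% of its words shared with other genes.

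The cell cycle regulators of G1 changed in opposing directions. Cyclin D1 (Ccnd1), the growth-factor-induced partner of Cdk4, stood at 255, 346 and 270.0 CPM at day 0 and 64.1, 95.2 and 104 CPM at day 3 (log2 fold change −1.73, SE 0.13, adjusted p = 5.42e-07), with 22.3% of its words shared. Every day 3 library was below every day 0 library, and the control was the lowest at both days. Cyclin D3 (Ccnd3), the D cyclin known to persist in differentiated muscle, went the other way, at 66.5, 65.2 and 73.2 CPM at day 0 and 319, 325 and 381 CPM at day 3 (log2 fold change 2.33, SE 0.11, adjusted p = 1.52e-08). The genotypes lay close together at both days. Cdk4 (chr10:127063534-127067920), the kinase that both cyclins bind and that the series title names, stood at 660.2, 685 and 741 CPM at day 0 and 378, 342 and 316 CPM at day 3 (log2 fold change −1.01, SE 0.13, adjusted p = 2.93e-05). It was lower at day 3 in all 3 genotypes (log2 ratios −0.80, −0.99 and −1.23) and the day 5 levels were 249.9, 240.5 and 301 CPM. The retinoblastoma gene Rb1, whose product Cdk4 phosphorylates, rose from 32.9, 41.1 and 23.2 to 121, 134 and 103 CPM (log2 fold change 1.90, SE 0.13, adjusted p = 1.62e-07). The Fkbp5 knockdown had the least Rb1 at both days.

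Of 27 regulators of G1 and S phase, 6 rose and 16 fell (81.5% called, median −0.86). The steepest falls were in the MuvB partner Mybl2 (−3.15, SE 0.17), with 21.1% of its words shared, in cyclin E2 (Ccne2) (−2.48, SE 0.13) and in the repressor E2f7 (−2.33, SE 0.25). Of 5 CDK inhibitor genes 2 rose and 1 fell, a called share of 60% against 52.8% of the members. p21 (Cdkn1a, chr17:29090976-29100727), the inhibitor that MyoD is known to induce, stood at 183, 239 and 186 CPM at day 0 and 1200, 1440 and 916 CPM at day 3 (log2 fold change 2.54, SE 0.13, adjusted p = 2.66e-08), without overlap and highest in the Fkbp4 knockdown at both days. p57 (Cdkn1c) went from 4, 2 and 1 reads at day 0 to 110, 296 and 27 at day 3 (log2 fold change 5.72, SE 0.35, adjusted p = 1.02e-07). Its day 3 levels of 26, 52.3 and 6.13 CPM differed widely between the genotypes, and by day 5 it was back to 1.94, 8.22 and 2.19 CPM. It shares 27.2% of its words with other genes. p27 (Cdkn1b) was not called, at 96.1, 86.9 and 110.5 CPM at day 0 and 98.2, 97.9 and 102 CPM at day 3 (log2 fold change 0.04, SE 0.11, adjusted p = 0.814), and p19 (Cdkn2d) fell (log2 fold change −0.84, SE 0.14, adjusted p = 0.000384).

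Genes of DNA synthesis fell in all but a few cases. In the replication list 47 of 49 fell, 44 of them at least 2-fold, and none rose (median −1.74), and its share of the reads went from 0.402%, 0.436% and 0.354% to 0.132%, 0.120% and 0.122%. The sliding clamp Pcna, with 23.3% of its words shared, stood at 636, 575 and 578 CPM at day 0 and 193, 144 and 140.1 CPM at day 3 (log2 fold change −1.91, SE 0.12, adjusted p = 1.22e-07). The replication licensing factor Cdc6 went from 23, 36.3 and 19 to 3.31, 4.95 and 4.54 CPM (log2 fold change −2.59, SE 0.21, adjusted p = 8.31e-07). In both genes all 3 day 3 libraries lay well below all 3 day 0 libraries. The licensing inhibitor geminin (Gmnn) (−2.37, SE 0.13) and the helicase subunit Mcm6 (−1.85, SE 0.13) were lower in every genotype. Nucleotide synthesis followed, with 24 of 26 lower and 1 higher (median −1.16). Thymidine kinase (Tk1) stood at 239.9, 235 and 204 CPM at day 0 and 31.2, 22.8 and 31.6 CPM at day 3 (log2 fold change −2.99, SE 0.14, adjusted p = 1.38e-08). Thymidylate synthase (Tyms) (−2.32, SE 0.13), which supplies thymidylate, fell as well, and the ribonucleotide reductase subunit Rrm2 fell less, to 213, 196 and 216 CPM (−1.19, SE 0.13).

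Mitotic genes fell in 70 of 76 cases, 66 of them at least 2-fold, and none rose (median −1.64). Cdk1, the kinase that drives entry into mitosis, stood at 423, 399 and 466 CPM at day 0 and 112, 84.1 and 158 CPM at day 3 (log2 fold change −1.90, SE 0.14, adjusted p = 4e-07). Day 3 was well below day 0 in every genotype, and the Fkbp5 knockdown kept the highest level at day 3. Topoisomerase Top2a, which untangles chromosomes, stood at 363, 477 and 340.5 CPM at day 0 and 105, 94.7 and 142 CPM at day 3 (log2 fold change −1.79, SE 0.19, adjusted p = 8.96e-05), and anillin (Anln), the scaffold of the cleavage furrow, at 341, 382 and 368 CPM at day 0 and 98.2, 89.4 and 144 CPM at day 3 (log2 fold change −1.74, SE 0.14, adjusted p = 1.09e-06). Both again were highest at day 3 in the Fkbp5 knockdown. The spindle and cohesion genes Ska1 (−2.84, SE 0.18), Kif15 (−2.42, SE 0.18), Cdca5 (−2.41, SE 0.16) and Sgo1 (−2.41, SE 0.15) had the largest falls of the list. The list held 0.807%, 0.876% and 0.745% of the reads at day 0, 0.251%, 0.224% and 0.357% at day 3 and 0.172%, 0.241% and 0.137% at day 5. Its median log2 ratio within a genotype was −1.71, −2.05 and −1.18, so mitotic genes were the least reduced at day 3 in the Fkbp5 knockdown, a difference that rests on 1 library per genotype and day and has no test. By day 5 the Fkbp5 knockdown had the smallest share.

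Promoters of mitotic genes are shown for the pairing of CCAAT boxes with the cell cycle genes homology region (CHR), through which the MuvB complexes are known to act. The Ccnb2 promoter, for cyclin B2 (chr9:70421539-70421727, minus strand), holds CCAAT at −87, −54 and −21, 33 bases apart, and the CHR letters TTTGAA at −167 and at position 5 of the transcript. The Cdk1 promoter (chr10:69352916-69353126, minus strand) holds CCAAT on the opposite strand, read as ATTGG, at −208, −80 and −48, the last pair 32 bases apart, and TTTGAA at −71 and −15. Capitals mark these matches in RefSeq GRCm38.p6.
Ccnb2: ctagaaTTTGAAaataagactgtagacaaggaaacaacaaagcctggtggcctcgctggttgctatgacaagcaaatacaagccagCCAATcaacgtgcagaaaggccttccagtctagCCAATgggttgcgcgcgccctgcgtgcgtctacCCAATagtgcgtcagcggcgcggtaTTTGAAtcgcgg
Cdk1: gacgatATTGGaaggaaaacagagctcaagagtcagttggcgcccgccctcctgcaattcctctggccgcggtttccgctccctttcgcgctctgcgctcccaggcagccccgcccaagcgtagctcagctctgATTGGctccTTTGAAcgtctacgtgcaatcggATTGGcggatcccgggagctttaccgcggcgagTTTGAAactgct

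TTTGAA occurred in 68.2% of the 66 mitotic promoters in the table, in 10.3% of the 39 replication promoters and in 11.3% of the members and 18.2% of all promoters, on either strand of the 300-base window. In the 250 bases before the start alone it was in 37.9% of the mitotic and 9.84% of the member promoters, so many of the matches lay in the first 50 bases of the transcript. The other CHR form searched, TTCGAA, was in 9.09% of the mitotic, 5.13% of the replication and 2.26% of the member promoters (1.57% of all). CCAAT was in 69.7% of the mitotic, 64.1% of the replication and 39.1% of the member promoters (38% of all). The E2F letters TTTCCCGC were in 17.95% of the replication promoters (7 of 39), 4.55% of the mitotic ones and 2.40% of the members (1.11% of all promoters), and TTTGGCGC was in 17.95%, 4.55% and 1.10% (0.537% of all promoters). In the 250 bases before the start each of these E2F forms was in 3 of the 39 replication promoters (7.69%). The median change of the mitotic genes was −1.63 for the 45 with TTTGAA and −1.67 for the 21 without it. Cyclin B2 itself (Ccnb2) had a log2 fold change of −1.31 (SE 0.13).

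Only 11 of 67 histone genes reached the minimum in these polyA libraries, of which 2 were higher and 6 lower (72.7% called). H2afz, a histone variant of gene promoters, stood at 1454, 1108 and 1700 CPM at day 0 and 305, 351 and 479 CPM at day 3 (log2 fold change −1.90, SE 0.14, adjusted p = 4.09e-07), with 42.3% of its words shared. The linker histone Hist1h1c went up, from 51.5, 36.9 and 31.3 to 124, 159.7 and 128 CPM (log2 fold change 1.80, SE 0.17, adjusted p = 1.01e-05), and so did Hist1h2bc (1.42, SE 0.16), with 33.5% of its words shared. Replication-dependent histone mRNAs usually carry no polyA tail, so the polyA selection named in the labels limits what these counts say about them. Lamin B1 (Lmnb1), a nuclear envelope protein of cycling cells, fell (log2 fold change −1.78, SE 0.13, adjusted p = 2.93e-07).

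**Figure D3:**
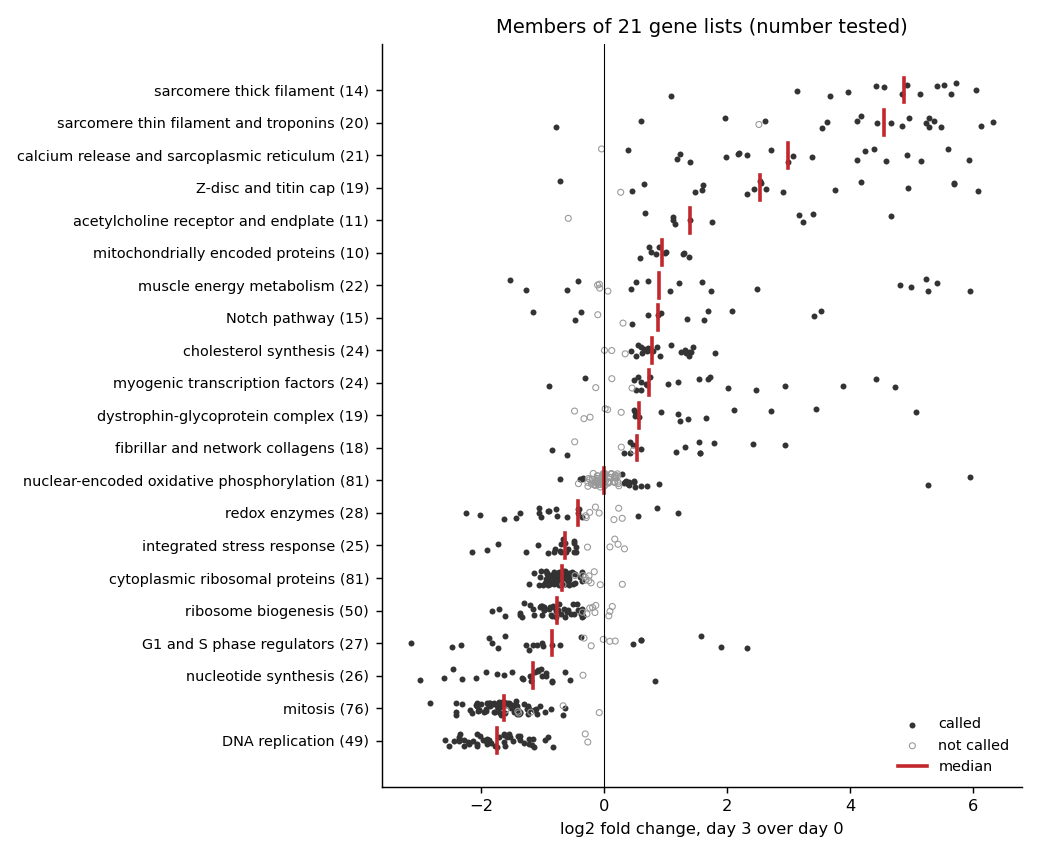
Log2 fold change from day 0 to day 3 of each tested member (points, filled where called and open where not) of the lists named on the left with their number of tested members, and the list median (red bar), ordered by the median. The medians of the sarcomere and calcium release lists lie to the right of 0, and those of the nucleotide synthesis, mitosis and DNA replication lists to the left.

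Ribosomal protein transcripts fell together by a modest amount: 0 higher and 70 lower of 81 tested (median −0.69). Their share of the reads went from 8.61%, 7.24% and 10.1% to 5.51%, 4.70% and 5.29%. The stalk protein Rplp0 stood at 4764, 4305 and 5536 CPM at day 0 and 2508, 2509 and 2545 CPM at day 3 (log2 fold change −0.94, SE 0.14, adjusted p = 0.000122), and Rpl8, with few shared words, at 2215, 2053 and 2340 CPM at day 0 and 1449, 1415 and 1296 CPM at day 3 (log2 fold change −0.66, SE 0.13, adjusted p = 0.0011). In each the days did not overlap, and the Fkbp5 knockdown had the highest day 0 level. Much of the sequence of some of these genes recurs in other genes (42.8% of the words of Rplp0 and 29.8% of Rps12), and how the authors counted reads that align to several places is not given in the sources used here. Ribosome biogenesis factors fell in 41 of 50 cases with none higher (median −0.77). The snoRNP protein Nop56 stood at 295, 312 and 262 CPM at day 0 and 89.5, 94.1 and 63.4 CPM at day 3 (log2 fold change −1.82, SE 0.12, adjusted p = 1.28e-07). Nucleophosmin (Npm1), the nucleolar chaperone, went from 1695, 1685 and 1892 to 596, 526 and 479 CPM (log2 fold change −1.72, SE 0.14, adjusted p = 6.59e-07). Among 13 translation factors 2 were higher and 8 lower (76.9% called). The initiation helicase Eif4a1 (−0.90, SE 0.12) and the translation repressor Eif4ebp1 (−1.10, SE 0.13) fell, while the elongation factor Eef2 was not called (log2 fold change 0.10, SE 0.13, adjusted p = 0.552).

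**Figure D4:**
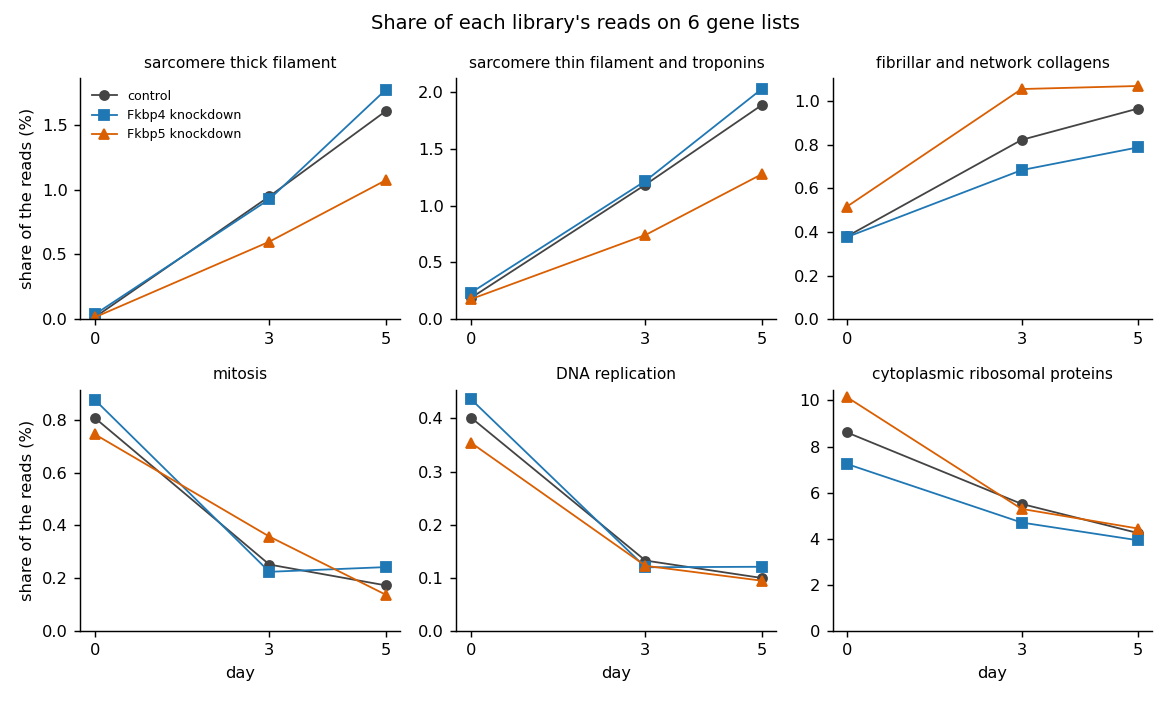
Share of each library's reads (%) on 6 gene lists at days 0, 3 and 5, 1 point per library and 1 line per genotype, with each axis starting at 0. Thick and thin filament and collagen lists gain reads from day 0 to day 3 in each genotype, and mitosis, DNA replication and ribosomal protein lists lose them.

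Amino acid and stress-response genes fell in 20 of 25 cases of the integrated stress response list and rose in none (median −0.64). The serine synthesis enzyme Phgdh, with 56.3% of its words shared, stood at 448, 482 and 549.5 CPM at day 0 and 89.2, 142 and 104 CPM at day 3 (log2 fold change −2.15, SE 0.14, adjusted p = 1.94e-07). Its pathway partners Psph (−1.91, SE 0.17) and Psat1 (−1.27, SE 0.14) and asparagine synthetase Asns (−1.73, SE 0.15) fell too, and the factor Atf4 that drives these genes fell by 0.46 on the log2 scale (SE 0.12), a call that was lost without the control pair (log2 fold change −0.47, adjusted p = 0.0647). Mitochondrial Shmt2, which makes one-carbon units from serine, went from 212, 269 and 284 to 59.4, 74.5 and 66.8 CPM (log2 fold change −1.92, SE 0.11, adjusted p = 5.92e-08) and stood at 132, 117 and 98.3 CPM at day 5. Of 28 redox genes 17 fell and 3 rose (71.4% called). The quinone reductase Nqo1 stood at 100.1, 118 and 99.5 CPM at day 0 and 21.5, 17.7 and 28.6 CPM at day 3 (log2 fold change −2.24, SE 0.17, adjusted p = 1.53e-06). Sulfiredoxin (Srxn1) (−2.03, SE 0.14) and the glutathione synthesis subunit Gclm (−1.44, SE 0.16), which like Nqo1 are targets of NRF2, fell in every genotype.

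In the cholesterol pathway 21 of 24 genes rose and none fell (median 0.77). Squalene synthase (Fdft1, 31.9% of words shared) stood at 110.0, 106 and 107 CPM at day 0 and 328, 464 and 344 CPM at day 3 (log2 fold change 1.80, SE 0.13, adjusted p = 3.34e-07), and HMG-CoA synthase (Hmgcs1) at 229, 199 and 203 CPM at day 0 and 499, 685 and 472 CPM at day 3 (log2 fold change 1.38, SE 0.14, adjusted p = 7.37e-06). The Fkbp4 knockdown was the highest of day 3 in both, and the median log2 ratio of the list was 0.58, 1.21 and 0.74 in the order of the genotypes, from 1 library a day and with no test. At day 5 the levels were 224, 247 and 227 CPM and 432, 399.6 and 267 CPM, below day 3 in every genotype. Nsdhl (1.45, SE 0.13) and Hsd17b7 (1.42, SE 0.12), later enzymes of the pathway, and its master regulator Srebf2 (0.65, SE 0.11) rose as well. Of 14 fatty acid genes 8 rose and none fell. The called share of 57.1% was near the background of 52.8%, but all of these calls were increases, against 26.0% of the members called higher. Stearoyl-CoA desaturase 1 (Scd1), which makes monounsaturated fatty acids, stood at 599.7, 530.4 and 583 CPM at day 0 and 2863, 3604 and 4880 CPM at day 3 (log2 fold change 2.70, SE 0.17, adjusted p = 1.33e-07), and Scd2 at 1300, 1294 and 1134 CPM at day 0 and 3098, 4303 and 3226 CPM at day 3 (log2 fold change 1.50, SE 0.14, adjusted p = 2.79e-06). Fatty acid synthase (Fasn) was higher by 0.74 (SE 0.17).

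The insulin-like growth factor axis held increases both from near 0 and at high levels (10 higher and 6 lower of 18 tested, 88.9% called, median 0.60). Igf2, the growth factor that myoblasts are known to secrete as they differentiate, stood at 2.21, 1.81 and 1.32 CPM at day 0 and 127, 136 and 60.2 CPM at day 3 (log2 fold change 5.92, SE 0.19, adjusted p = 1.59e-09). Its day 3 level in the Fkbp5 knockdown was the lowest of the 3, and 63.1% of its words are shared with other genes. H19, the noncoding RNA next to Igf2, stood at 299, 418 and 243 CPM at day 0 and 5611, 5811 and 5238 CPM at day 3 (log2 fold change 4.16, SE 0.17, adjusted p = 4.86e-09), with all 3 genotypes close together at day 3. The binding protein Igfbp5 went from 742, 858 and 939 to 3599, 5412 and 5461 CPM (log2 fold change 2.50, SE 0.14, adjusted p = 4.9e-08). Igfbp2 fell (log2 fold change −1.04, SE 0.14, adjusted p = 7.58e-05), and Igf1 rose from 11, 4 and 6 reads at day 0 to 92, 46 and 84 reads and 21.8, 8.13 and 19.1 CPM (log2 fold change 3.33, SE 0.27, adjusted p = 7.07e-07).

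Collagen genes rose in 13 of 18 cases and fell in 2 (median 0.53). Type I collagen Col1a1 stood at 165, 145 and 382 CPM at day 0 and 574, 360.1 and 1115 CPM at day 3 (log2 fold change 1.56, SE 0.13, adjusted p = 9.29e-07). The days overlapped because the Fkbp5 knockdown had more at day 0 than the Fkbp4 knockdown had at day 3, yet each genotype rose. With no genotype term in the fit Col1a1 was not called (log2 fold change 1.57, adjusted p = 0.0956). Col3a1 stood at 1153, 1175 and 1818 CPM at day 0 and 3472, 2934 and 3674 CPM at day 3 (log2 fold change 1.31, SE 0.15, adjusted p = 1.14e-05), and Col6a2 rose further (log2 fold change 2.42, SE 0.13, adjusted p = 3.63e-08). Among other matrix genes 22 of 43 rose and 13 fell (81.4% called), with large moves both ways. Decorin (Dcn), a small proteoglycan that binds collagen and TGF-beta, stood at 11.9, 12.8 and 27.6 CPM at day 0 and 525, 297 and 538 CPM at day 3 (log2 fold change 4.74, SE 0.22, adjusted p = 5.3e-07). Osteopontin (Spp1), a secreted phosphoprotein, stood at 7934, 5682 and 6435 CPM at day 0 and 282, 283 and 299.5 CPM at day 3 (log2 fold change −4.52, SE 0.17, adjusted p = 3.01e-09). In both genes the days lay far apart. Periostin (Postn) rose (log2 fold change 3.82, SE 0.33, adjusted p = 1.3e-05) and went on to 120.5, 52.9 and 150.0 CPM at day 5. Sparc (1.37, SE 0.15) and fibronectin Fn1 (0.46, SE 0.15) rose less, and Prelp had 3 reads at day 0 and 154 at day 3 summed over the genotypes, a ratio of 47.8 for day 3 over day 0 (95% counting interval 16.1 to 234). Fn1 was not called without the Fkbp4 knockdown pair (log2 fold change 0.41, adjusted p = 0.136), without the Fkbp5 knockdown pair (log2 fold change 0.32, adjusted p = 0.0822) or with no genotype term (log2 fold change 0.46, adjusted p = 0.0808). Matrix Gla protein (Mgp), an inhibitor of calcification, fell from 340.4, 251 and 224 to 24.6, 19.3 and 22.7 CPM (log2 fold change −3.59, SE 0.13, adjusted p = 3.01e-09).

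Notch genes rose in 10 of 15 cases and fell in 3 (median 0.87). The 3 that fell were Hes1 (−0.48), Rbpj (−0.39) and Lfng (−1.16). The pathway passes a signal between touching cells and is known to hold back muscle differentiation. The ligand Dll1 stood at 1.99, 3.81 and 2.63 CPM at day 0 and 31.5, 31.3 and 27.9 CPM at day 3 (log2 fold change 3.42, SE 0.22, adjusted p = 1.23e-07), the receptor Notch3 at 65.4, 77 and 67.6 CPM at day 0 and 169, 224 and 260.0 CPM at day 3 (log2 fold change 1.62, SE 0.13, adjusted p = 5.62e-07). Heyl, a transcriptional repressor that Notch induces, stood at 3.98, 6.22 and 2.90 CPM at day 0 and 50.2, 45.8 and 58.8 CPM at day 3 (log2 fold change 3.52, SE 0.23, adjusted p = 5.34e-07), and its relative Hey1 at 11.3, 12.2 and 8.95 CPM at day 0 and 36.7, 54.4 and 45.9 CPM at day 3 (log2 fold change 2.07, SE 0.17, adjusted p = 6.83e-07). The Fkbp5 knockdown was lowest at day 0 and highest at day 3 for Heyl, and no days overlapped in Dll1, Notch3, Heyl or Hey1. These 4 genes were lower again at day 5: Dll1 had 15.7, 21.3 and 17.6 CPM, Notch3 109, 114 and 144 CPM, Heyl 24, 19.4 and 32.7 CPM and Hey1 14, 17.3 and 17.8 CPM. Sox8, a factor known to oppose MyoD, shared this course, with 0.884, 2.21 and 0.526 CPM at day 0 and 11.8, 11.1 and 15.7 CPM at day 3 (log2 fold change 3.31, SE 0.38, adjusted p = 2.55e-05) and 4.60, 3.37 and 3.95 CPM at day 5. Among TGF-beta, myostatin and YAP genes 8 of 29 rose and 11 fell, a called share of 65.5% against 52.8% of the members. The matricellular protein Ccn3 rose (log2 fold change 4.36, SE 0.17, adjusted p = 3.7e-09), as did the ligand Tgfb2 (log2 fold change 2.73, SE 0.15, adjusted p = 4.2e-08). Of 12 Wnt genes 4 rose and 4 fell (66.7% called), the largest fall in the Wnt modulator Dkk2 (log2 fold change −3.23, SE 0.21, adjusted p = 1.28e-07).

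Immediate early genes split, 10 higher and 9 lower of 27 tested (70.4% called). Fosl1, an AP-1 subunit induced by growth factors, stood at 81.1, 127 and 79.5 CPM at day 0 and 9.23, 15.4 and 11.1 CPM at day 3 (log2 fold change −3.00, SE 0.14, adjusted p = 8.83e-09), with 54.5% of its words shared. The ERK phosphatases Dusp4 (−2.39, SE 0.16) and Dusp5 (−2.71, SE 0.18) fell too, and the Fkbp5 knockdown had the lowest Dusp4 at both days (159, 183 and 82.6 CPM at day 0 and 26, 46.8 and 12 CPM at day 3). Klf4 rose (log2 fold change 0.80, SE 0.11, adjusted p = 6e-05). Of p53 targets 12 rose and 6 fell of 26 (69.2% called). The TNF-family receptor Eda2r stood at 73.3, 69.2 and 65.5 CPM at day 0 and 389, 390.3 and 320.2 CPM at day 3 (log2 fold change 2.40, SE 0.12, adjusted p = 1.47e-08), and the growth-arrest gene Gadd45g (2.01, SE 0.11) and the apoptosis gene Pmaip1 (2.08, SE 0.15) rose as well. In the cytoskeleton 6 of 31 genes rose and 14 fell (64.5% called, against 52.8% of the members). Vimentin (Vim), the intermediate filament of mesenchymal cells, stood at 5950, 6900 and 7315 CPM at day 0 and 3697, 4848 and 4301 CPM at day 3 (log2 fold change −0.65, SE 0.14, adjusted p = 0.00195), and the actin Actb fell (log2 fold change −0.65, SE 0.13, adjusted p = 0.00115). Smooth muscle actin Acta2 rose, from 965, 895 and 556 to 2423, 1988 and 1807 CPM (log2 fold change 1.40, SE 0.14, adjusted p = 5.02e-06). The tubulins parted, Tubb5 lower (−1.36, SE 0.12) and Tubb6 higher (1.31, SE 0.14).

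Autophagy and lysosome genes rose in 24 of 48 cases and fell in 5 (median 0.31). The called share was 60.4%, against 52.8% of all members and 59.9% of the third of members with the highest mean CPM. Without the control pair 19 calls in place of 29 were made. The autophagosome protein Map1lc3a (LC3) stood at 61.2, 51.4 and 54.5 CPM at day 0 and 299, 229 and 232 CPM at day 3 (log2 fold change 2.19, SE 0.11, adjusted p = 2.26e-08), and the initiating kinase Ulk1 rose (log2 fold change 1.15, SE 0.12, adjusted p = 5.9e-06). Of 15 genes of FoxO factors and ubiquitin ligases 8 rose and 2 fell (66.7% called). Among them Asb2, a ligase subunit that degrades filamin B, stood at 0.221, 1.61 and 0.263 CPM at day 0 and 20.4, 24.6 and 27.5 CPM at day 3 (log2 fold change 4.99, SE 0.38, adjusted p = 1.85e-06). The atrophy ligase atrogin-1 (Fbxo32) rose from 25, 16.5 and 13.2 to 92.1, 82.5 and 83.1 CPM (log2 fold change 2.27, SE 0.15, adjusted p = 2.27e-07). Among interferon genes there were 8 risers of 17 that reached the minimum, of 39 in the list, with no gene lower. The called share of 47.1% was near the background of 52.8%. All of these calls were increases, whereas 26.0% of the members were called higher and 26.9% lower. B2m, the light chain of MHC class I, stood at 275, 275 and 373 CPM at day 0 and 512, 458 and 582 CPM at day 3 (log2 fold change 0.76, SE 0.12, adjusted p = 0.000151), the heavy chain H2-K1 rose by 1.24 (SE 0.13, 22.8% of words shared), and Xaf1 by 2.08 (SE 0.19). Of 22 splicing regulators 7 rose and 11 fell (81.8% called). Srsf3 (−1.15, SE 0.12) and Srsf7 (−1.19, SE 0.11), SR-family splicing factors, and Mbnl3 (−1.60, SE 0.20), the muscleblind paralog known to hold back muscle differentiation, fell. The unfolded protein response list was balanced (7 higher and 8 lower of 22 tested, 68.2% called). Its chaperone Hspa5 was not called, at 1050, 1044 and 1284 CPM at day 0 and 1145, 1092 and 923 CPM at day 3 (log2 fold change −0.09, SE 0.14, adjusted p = 0.635).

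The targeted genes themselves were lower at day 3. Fkbp4 (FKBP52, chr6:128429735-128438677), a peptidyl-prolyl isomerase and Hsp90 co-chaperone, stood at 241, 60.2 and 255 CPM at day 0 and 143, 27 and 146 CPM at day 3 (log2 fold change −0.88, SE 0.12, adjusted p = 4.77e-05). The Fkbp4 knockdown libraries were the lowest at both days, as their label says, and this genotype's day 0 level lay below the other day 3 levels, so the days overlapped across genotypes. With no genotype term in the fit neither Fkbp4 (log2 fold change −0.81, adjusted p = 0.526) nor Fkbp5 (log2 fold change −1.42, adjusted p = 0.122) was called. Fkbp5 (FKBP51, chr17:28399094-28517527) stood at 20.1, 24.5 and 4.47 CPM at day 0 and 7.34, 7.77 and 3.18 CPM at day 3, from 91, 122 and 17 reads and 31, 44 and 14 reads (log2 fold change −1.34, SE 0.24, adjusted p = 0.00049). It was lowest in the Fkbp5 knockdown at both days, and at day 5 it was at 14.8, 16 and 4.61 CPM. Of 14 FK506-binding protein genes 2 rose and 6 fell, a called share of 57.1% near the background, and 5 were called with no genotype term. The reticulum members parted, Fkbp11 lower (−1.26, SE 0.13) and Fkbp14 higher (1.06, SE 0.12). Chaperone genes were near the background (11 higher and 12 lower of 41 tested, 56.1% called). The muscle chaperones Itgb1bp2 (melusin) (5.73, SE 0.32) and Unc45b (5.42, SE 0.28), which folds myosin, rose steeply, and the mitochondrial chaperonin Hspd1 fell (−1.36, SE 0.12), with 53.1% of its words shared. Of 18 genes of the glucocorticoid receptor and its targets 5 rose and 9 fell (77.8% called). Tsc22d3 (GILZ) rose (log2 fold change 1.34, SE 0.14, adjusted p = 1.1e-05), whereas Sgk1 (log2 fold change −1.86, SE 0.14, adjusted p = 4.28e-07) and Errfi1 (log2 fold change −1.71, SE 0.13, adjusted p = 3.94e-07) fell.

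The 12 largest increases mixed muscle genes with genes of other known roles. Scara5, a ferritin receptor, had 2 reads at day 0 and 491 at day 3 summed over the genotypes, a ratio of 229 for day 3 over day 0 (95% counting interval 63 to 1894). Cilp, a matrix protein known from cartilage, had 1 read at day 0 and 205 at day 3 summed over the genotypes, a ratio of 191 for day 3 over day 0 (95% counting interval 33.9 to 7579). Gm38534, a predicted gene, had 2 reads at day 0 and 229 at day 3 summed over the genotypes, a ratio of 107 for day 3 over day 0 (95% counting interval 29.2 to 886). A pair of noradrenaline genes stood among them. The noradrenaline transporter Slc6a2 had 3 reads at day 0 and 292 at day 3 summed over the genotypes, a ratio of 90.7 for day 3 over day 0 (95% counting interval 30.7 to 442), and dopamine beta-hydroxylase (Dbh), which makes noradrenaline, stood at 0, 0.802 and 0.263 CPM at day 0 and 25.8, 24.7 and 45.4 CPM at day 3 (log2 fold change 6.27, SE 0.40, adjusted p = 5.01e-07). The Dbh level at day 5 was 9.68, 12.4 and 23.5 CPM, below day 3 in every genotype. Myh7b, a slow-type myosin, went to 24.9, 32.9 and 14.3 CPM (log2 fold change 6.24, SE 0.34, adjusted p = 3.1e-08), and Filip1, a regulator of filamin, to 19.6, 26 and 14.8 CPM (log2 fold change 5.98, SE 0.33, adjusted p = 3.85e-08). Lmod2, Actc1, Myoz2, Myh3 and Cav3 complete the set.

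The 12 largest decreases held secreted factors, receptors and adhesion molecules. Il1rn, the secreted antagonist of the interleukin-1 receptor, had 275 reads at day 0 and 1 at day 3 summed over the genotypes, a ratio of 295 for day 0 over day 3 (95% counting interval 52.6 to 11700). The proliferins Prl2c2 and Prl2c3, prolactin-family hormones, share 89.8% and 67% of their words with other genes, so their reads cannot be assigned with certainty. Prl2c3 stood at 359.8, 452 and 578 CPM at day 0 and 3.31, 5.65 and 4.09 CPM at day 3 (log2 fold change −6.69, SE 0.18, adjusted p = 7.35e-10). Grem1, an antagonist of BMPs, stood at 224, 214 and 163 CPM at day 0 and 8.52, 4.42 and 6.36 CPM at day 3 (log2 fold change −4.98, SE 0.18, adjusted p = 3.21e-09). The chemokine Cxcl5 went from 47.3, 39.1 and 46.6 to 1.42, 1.06 and 0.681 CPM (log2 fold change −5.34, SE 0.23, adjusted p = 6.28e-09). In Prl2c3, Grem1 and Cxcl5 every day 3 library was far below every day 0 library. Ngfr, the p75 neurotrophin receptor (−5.29, SE 0.25), the protease inhibitor Serpinb2 (−5.91, SE 0.27), integrin Itgb7 (−5.84, SE 0.26), the acyl-CoA synthetase Acsbg1 (−5.19, SE 0.20), the transporter Slc16a11 (−5.19, SE 0.22), the immunoglobulin-family gene Igsf5 (−5.13, SE 0.33) and the carbonic anhydrase-related Car8 (−5.98, SE 0.35) completed the set.

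The changes of single genotypes rest on 1 library a day, so differences between them have no test. Of 10825 members tested, the log2 ratio of day 3 to day 0 differed by over 1 between the control and the Fkbp4 knockdown in 301. Between the control and the Fkbp5 knockdown it did so in 456. The Fkbp5 knockdown libraries held 3932372 and 4356846 counts at days 0 and 3, and the Fkbp4 knockdown libraries 4823967 and 5568486. Whether depth accounts for the difference between 301 and 456 was not tested. The widest spreads among called members with at least 50 reads in 1 library of every genotype were in genes with few reads at 1 of the days. Mymx had log2 ratios of 6.92, 4.83 and 4.19, Pgam2 of 8.12, 4.62 and 4.62, Asb2 of 6.53, 3.94 and 6.71, and Car8, which fell, of −7.03, −8.00 and −4.84. In the first 3 genes the Fkbp4 knockdown held the most at day 0 (at most 15 reads in any library), as it did for Myog and Myh3. The thick filament list held 0.0149%, 0.0369% and 0.0145% of the reads at day 0, the Fkbp4 knockdown again the highest. Its median log2 ratios were 5.27, 4.32 and 4.42.

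**Figure D5:**
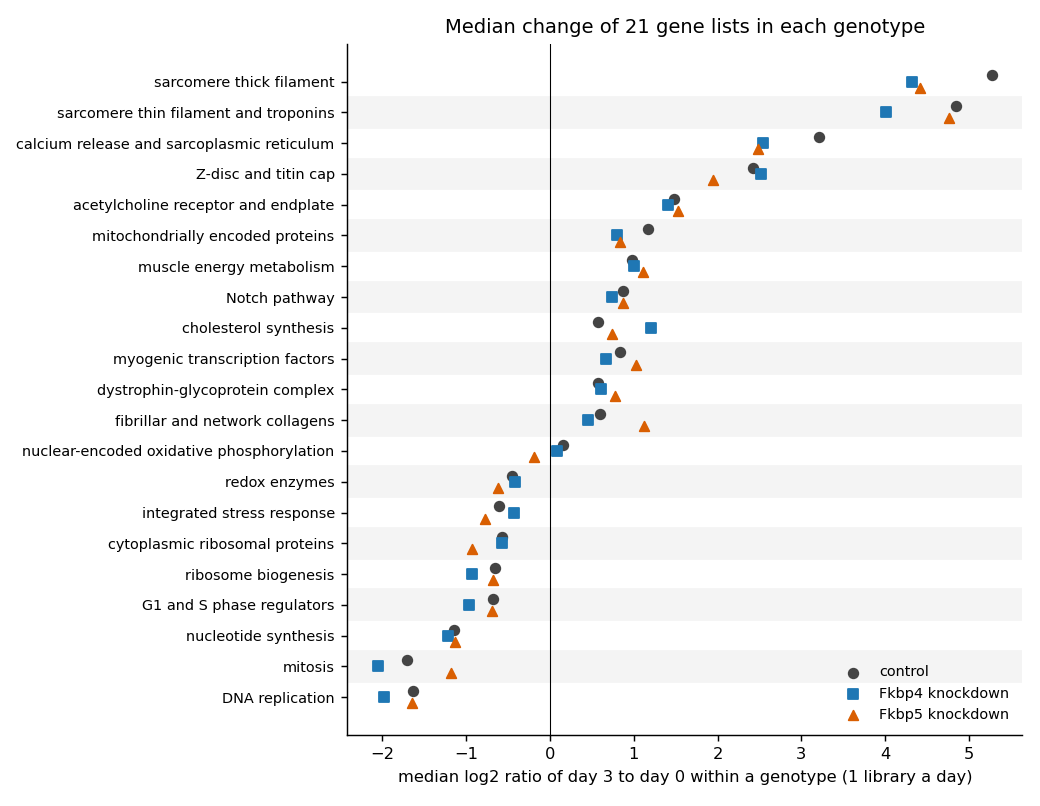
Median log2 ratio of day 3 to day 0 within each genotype, over the tested members of each list, 1 library a day. The 3 genotypes lie on the same side of 0 for each list shown except nuclear-encoded oxidative phosphorylation, and for mitosis the Fkbp5 knockdown lies nearest to 0.

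All 8 markers of the myogenic line rose (median 1.38). Markers of other cell types were summed over each whole list, and their part in the results was not tested. Of 12 adipocyte markers 5 reached the minimum, and the list summed to 57.2 to 104 CPM at day 0 and 70.4 to 183 CPM at day 3. The defining Adipoq and Plin1 and 4 others had 0 reads in all 6 libraries. Cebpa (−3.09, SE 0.31) and Pparg (−0.83, SE 0.22), transcription factors of fat cells, fell, and lipoprotein lipase Lpl rose (0.97, SE 0.22). DESeq2 did not call Pparg (log2 fold change −0.83, adjusted p = 0.0867), and with no genotype term Lpl was not called (log2 fold change 1.04, adjusted p = 0.23). Of 10 smooth muscle markers 4 reached the minimum, 3 higher and 1 lower, and the list, which holds Acta2, summed to 1009 to 1135 CPM at day 0 and 2912 to 3511 CPM at day 3, with no marker at 0 throughout. Of 14 osteoblast and chondrocyte markers Runx2 and Sox9 reached the minimum and neither was called. That list summed to 80.9 to 116 CPM at day 0 and 94.6 to 109.5 CPM at day 3, and 5 of its markers, Bglap and Acan among them, were at 0. Of 12 immune markers Cd14 alone reached the minimum and fell (−1.41, SE 0.24), in a list that summed to 12.9 to 20.1 CPM at day 0 and 5.75 to 8.45 CPM at day 3 with Cd3e, Tyrobp and 3 others at 0. The 10 endothelial markers, none of which reached the minimum, summed to 2.01 to 2.54 CPM at day 0 and 2.98 to 3.29 CPM at day 3, with Cdh5 and 2 others at 0. Of 10 neural markers the tubulin Tubb3 alone reached it and was not called, and the list summed to 156 to 166 CPM at day 0 and 135 to 226 CPM at day 3, with Rbfox3, Snap25 and 2 others at 0.

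Abundant members with a change of at most 0.1 on the log2 scale were Eef2, Myh9, Ywhae, Oaz1, Cd63 and Hspa5, none of them called. Without the Fkbp5 knockdown pair Myh9 was called (log2 fold change −0.28, adjusted p = 0.028). Ywhae, a signalling adaptor of the 14-3-3 family, stood at 1102, 1152 and 1142 CPM at day 0 and 1141, 1238 and 1049 CPM at day 3 (log2 fold change 0.02, SE 0.12, adjusted p = 0.92). The days overlapped, and the Fkbp5 knockdown was lower at day 3 while the other genotypes were higher.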

How the data were processed

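The authors deposited 1 table of raw read counts per gene, with 1 column per library. PolyA RNA libraries were made with TruSeq RNA v2 and read on a HiSeq2500, per the labels' protocols. CASAVA 1.8, HISAT2 2.0.2, Subread, featureCounts 1.4.6 and the build mm10 are named in the submitters' processing notes. The annotation release, the strand setting and how reads with several alignments were treated are not given in the sources used here. The genes and gene lists were chosen with earlier results of these data known.

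From the deposited counts, edgeR 4.0.16 (R 4.3.3) fitted day and genotype to the 6 libraries of days 0 and 3 with TMM scaling and its quasi-likelihood test, over 12140 genes that passed its low-count filter. The biological coefficient of variation was 0.126, or 0.169 with no genotype term. A prior count of 2 was used for log2 CPM. These gave the list medians within a genotype, the agreement in direction and the counts of members that differed between genotypes. It was not applied to the log2 fold changes of the fit, and log2 ratios of single genes within a genotype used no prior count. CPM are the deposited counts over the library total, with TMM scaling over all 9 libraries. A list's share of reads and summed CPM use unscaled totals. The totals of the 6 libraries differed by up to 1.416 times. With 2 residual degrees of freedom the interaction of day and genotype could not be tested. The fit was also run on simulated counts that held no difference between genotypes. That run could not show how using the genotypes as replicates affects the p-values. Gene names and places came from GENCODE M21 (GRCm38), which matched 47309 of 47728 identifiers. Counting intervals are exact binomial at 95% and, like the limit for a count of 0, cover counting error only.

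The named genes were a set of central regulators, the 12 called members with the largest change each way, the 4 called members of each list with the largest change and its 3 with the most reads, the 8 called members with the widest spread between genotypes among those with at least 50 reads, and the 6 with the most reads among those not called with a log2 fold change under 0.1. Genes named outside it, such as Klhl41 and Myf6, were chosen after their values were seen. The alternatives were DESeq2 1.42.0, limma 3.58.1 with voom, DESeq2's size factors, other low-count filters, no genotype term, all 9 libraries, no mitochondrial genes, a shorter promoter window and leaving out each genotype's pair of libraries.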

Additional observations from a re-analysis of the deposited data

Results flagged for a closer look

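In 11 of the named genes at least 1 genotype was higher and at least 1 lower at day 3, and the 95% counting intervals of these log2 ratios did not include 0. Further named genes, such as Cdkn1b, differed in sign with intervals that included 0. Each genotype has 1 library a day, so these differences were not tested, and none of the 11 genes was called. Values are log2 ratios of day 3 to day 0 in the order control, Fkbp4 knockdown, Fkbp5 knockdown, followed by the gap between the largest and the smallest.

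Chaperone genes were among them. Hspa8, the constitutive Hsp70, had −0.46, 0.30 and −1.49, the widest gap of the 11 at 1.793. Its levels were 4806, 3416 and 4994 CPM at day 0 and 3488, 4186 and 1774 CPM at day 3, and 44.8% of its 31-base words occur in other genes. Without the Fkbp4 knockdown pair Hspa8 was called lower (log2 fold change −0.97, adjusted p = 0.00107, edgeR's quasi-likelihood test). The reticulum chaperones Hspa5 (0.13, 0.08 and −0.47, gap 0.6043) and Calr (0.09, 0.12 and −0.15, gap 0.2655) were lower at day 3 in the Fkbp5 knockdown alone.

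The Fkbp5 knockdown was also the one that differed in sign for 6 others. It was higher at day 3 in the non-muscle myosin Myh9 (−0.28, −0.32 and 0.38, gap 0.6928) and in pyruvate kinase Pkm (−0.29, −0.10 and 0.05, gap 0.3421). It was lower in the antizyme Oaz1 (0.07, 0.10 and −0.37, gap 0.4629), the tetraspanin Cd63 (0.04, 0.23 and −0.18, gap 0.4149), the ATP synthase subunit Atp5g3 (0.08, 0.08 and −0.17, gap 0.2492) and the adaptor Ywhae (0.06, 0.11 and −0.12, gap 0.2311). Myh9 was called lower without the Fkbp5 knockdown pair (log2 fold change −0.28, adjusted p = 0.0280). The neuronal tubulin Tubb3 was lower in the control alone (−0.26, 0.13 and 0.42, gap 0.6847), and the secreted Fstl1 was lower in the Fkbp4 knockdown alone (0.18, −0.33 and 0.24, gap 0.5748).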

How the results depend on the processing

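The number of genes called was 6196, and it ranged from 4443 with DESeq2 to 6711 with no filter on low counts. Leaving out the pair of libraries of 1 genotype gave 5138 to 6043. Of the 5720 members called, 72.8% were also called by DESeq2, 83.5% with no genotype term, 79.2% without the control pair, 81.1% without the Fkbp4 knockdown pair, 88.1% without the Fkbp5 knockdown pair, and 97.6% or more under the 6 remaining alternatives. None of them changed direction under any of these. Of the 1874 called members with at least a 2-fold change, 1844 to 1874 stayed called under each alternative. No list median printed in the report changed sign and no named gene's call reversed. Leaving out a single library removes its pair from a paired fit, so pairs were left out. No paired analysis by replicate number was possible because the labels give no replicate numbers; genotype is the pairing used. Depth limits members near 5 CPM, where 3 counts are worth up to 0.763 CPM.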

Other observations

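The classes of pseudogenes had different counts, and their difference from protein-coding genes was not tested. Of 463 members annotated as processed pseudogenes, 170 were called lower and 18 higher (median log2 fold change −0.40), while 10179 protein-coding members had 2690 lower and 2737 higher (median 0.00372). The 26 transcribed processed pseudogenes had 12 lower and 1 higher (median −0.57). The 14 unprocessed pseudogenes had 7 higher and none lower (median 0.62), and the 9 transcribed unprocessed ones had 2 each way. Long intergenic noncoding RNAs numbered 48, with 18 higher and 13 lower (median 0.30).

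Reads of 10 members sat in 1 or a few libraries with almost none in the rest, and these genes did not pass the low-count filter. They were 9 processed pseudogenes and the microRNA gene Gm27529. Gm10123 had 1787, 2480 and 4 reads at day 0 and 3, 7 and 5 at day 3, in the order control, Fkbp4 knockdown, Fkbp5 knockdown. Gm15464 had 1316 and 510 reads in the control at days 0 and 3 and at most 2 in any other library of these days. Gm11425 had 1283 reads in the Fkbp4 knockdown at day 0 and at most 5 elsewhere.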
